A study of Homo sapiens with 8 samples.

Results

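Both inhibitors of protein kinase C used in this study were set together against untreated cells, to describe the transcripts that moved the same way with either compound. The set consists of 5 of the 8 arrays in the series, 3 from cells given enzastaurin and 2 from cells given a compound that the labels call Go, and they were compared with the 3 control arrays. The arrays were chosen by their titles alone. Within them, a gene was taken as a shared response where every inhibitor array lay on one side of every control array, where this held for every tested probe of a gene with 2 or more, and where the gene passed the test. That left 377 genes of 4115 with 2 or more tested probes, which is 9.16%, with 104 higher (2.53%) and 273 lower (6.63%) in the inhibitor arrays.

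All samples were CAL-27, an established line of human squamous carcinoma of the head and neck, grown in medium with serum and then starved of serum for 24 h. Controls are labelled only as such, with no vehicle named, enzastaurin was given at 10 µM, and the dose of Go is not stated. Treatment lasted 24 h, and Cy3-labelled cDNA from total RNA was hybridised, with 1 sample per array. The labels do not say whether replicates were separate cultures, so the spread behind each p-value is that of these arrays alone and may be technical. The model is limited to a single cell line, and because one dose is unknown the compounds are set side by side here and not tested against each other.

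Protein kinase C is a family of serine and threonine kinases, of which several isoforms respond to diacylglycerol and to phorbol esters. In keratinocytes and squamous carcinoma cells its activity feeds into ERK signalling, the AP-1 transcription factors and NF-kB, and it is known for driving terminal differentiation and the release of inflammatory mediators. Enzastaurin is a bisindolylmaleimide that competes with ATP and was developed as an inhibitor selective for the beta isoform.

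The arrays held 45220 spots each, and between 52.1% and 57.3% of probes on an array lay above background, meaning a signal-to-noise score over 3. The number of arrays limits the precision. Levels below are log2 of the background-subtracted intensity plus 50 after quantile normalisation, and differences are inhibitor minus control on that scale, which understates the change of dim probes. All 14 keratinocyte and squamous markers were above background on all 8 arrays and summed to an intensity of 129060 to 145757 on control arrays, 143361 to 147079 with enzastaurin and 121827 to 125478 with Go, with 2 of them higher and 4 lower. Of markers of other cells, 4 of 9 fibroblast, 5 of 10 leukocyte and 3 of 7 endothelial genes were bright enough to test, and COL1A2, COL3A1, DCN, PDGFRB, FAP, PTPRC, PECAM1, CDH5 and KDR were not. The summed intensity of the tested fibroblast markers was 208 to 717 on control arrays, 1233 to 1538 with enzastaurin and 1298 to 1586 with Go, and 1 of the 4 passed the test (THY1, higher by 1.99). Leukocyte markers summed to 963 to 1084, 1611 to 1799 and 1092 to 1427, and endothelial markers to 264 to 315, 150 to 177 and 183 to 231, in the same order. In bulk RNA, fewer cells of a type and less RNA per cell cannot be told apart, and the part of these markers in the results was not tested.

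Treatment and slide were only partly separate. By the positions of their spots, the first slide held every control array together with Go 1, and the other held Go 2 and the enzastaurin arrays. On the first principal component, which held 76.9% of the variance, control scores were -49.36, -41.62 and -21.52, those of Go were 0.05 and 23.08, and those of enzastaurin lay between 28.29 and 31.57. Control 3 was thus the control nearest to the inhibitor arrays, and Go 1 the inhibitor array nearest to the controls. With the slide as a block, the inhibitor effect reduces to Go 1 minus the controls within the first slide, and this is called the value within the slide. It rests on 1 inhibitor array. Its SE and adjusted p also take spread from the second slide, where Go 2 and enzastaurin are mixed. They do not measure the spread of Go 1, so a pass within the slide describes these arrays only. For enzastaurin, the slide and the treatment cannot be told apart.

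Across the genome the pooled comparison was broad and most changes were small. Of 12313 genes tested, 5705 passed an adjusted p of 0.05 (limma, Benjamini-Hochberg), which is 46.3%, with 1878 higher (15.3%) and 3827 lower (31.1%). Changes of at least 2-fold were fewer, at 638 genes or 5.18%, with 350 higher (2.84%) and 288 lower (2.34%). Every inhibitor array lay on one side of every control for 5481 genes, or 44.5%, of which 1722 were higher (14%) and 3759 lower (30.5%). The median difference over all genes was -0.132 and moved to 0.01 when arrays were centred on their medians, so that single changes are best read against it; that scaling called 4312 genes, of which 58.4% were higher against 32.9% with quantile normalisation. Within the first slide 363 genes passed (197 higher and 166 lower), and 290 of them were among the 5705. Without control 1 or control 2 the count was 3187 or 3305.

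Several probes of one gene often did not move together in this contrast. For the 3188 genes with exactly 2 tested probes, the pooled difference at one probe and at the other had a Pearson correlation of 0.118 (Spearman 0.127) across genes, which are not independent replicates. The correlation was 0.156 for enzastaurin minus control, 0.112 for Go 1 minus control within the first slide and 0.145 for control 1 minus control 3. It was 0.433 (Spearman 0.394) for Go 2 minus enzastaurin within the second slide. Both probes lay on the same side in 381 of these genes (12%), on opposite sides in 242 (7.6%), and in 1507 (47.3%) only 1 of the pair separated inhibitor from control arrays. Asking for a pair of probes on one side is stricter than asking for 1, so a lower share follows from the rule. The share that unrelated probes would give was not tested, so the 12% is no measure of agreement.

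**Figure D1:**
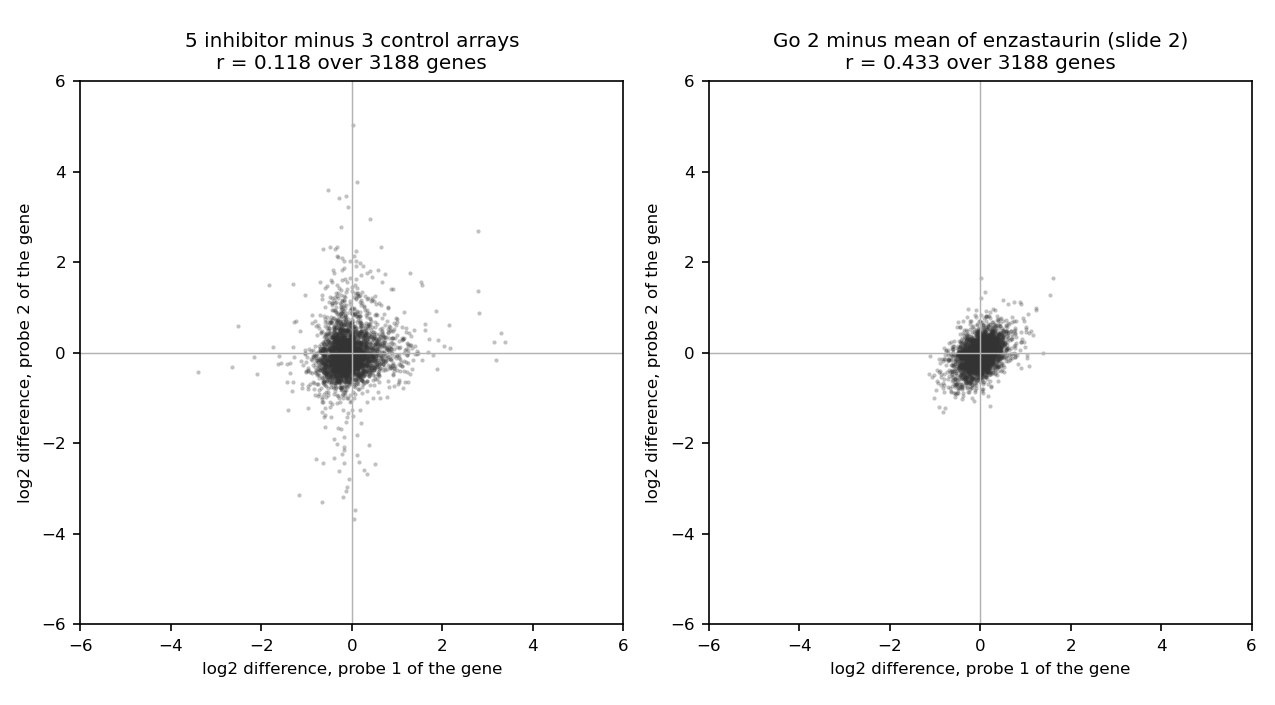
Log2 differences at the first and second probe of each of 3188 genes with exactly 2 tested probes, 1 point per gene, for the pooled inhibitor arrays minus controls (left) and for Go 2 minus the mean of the enzastaurin arrays on the second slide (right). On the left the points lie along both axes, with r = 0.118, and on the right along the diagonal, with r = 0.433.

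The 104 genes that were higher had a median difference of 0.62, with medians of 0.65 for enzastaurin minus control and 0.55 for Go minus control. The 273 that were lower had a median of -0.47, with -0.51 for enzastaurin and -0.40 for Go. These genes were chosen by their position in this same contrast, so the values describe them and support nothing further. With arrays centred on their medians 287 genes met the rule, 186 higher and 101 lower (64.8% higher against 27.6%), and 197 of them were among the 377, so the balance of directions rests on the scaling. In 44 of the 377 the change was at least 2-fold, a share close to the 638 of 5705 among all genes called. In 128 the gap between the groups was wider than the whole range of the controls, which was not counted over all genes. The narrowest gaps rounded to 0, and the widest was 1.87. The smallest difference among a gene's probes was, at the median, 64.5% of its largest, and it fell under 25% in 24 genes. Control 3 was the control nearest to the inhibitor arrays in 295 of the genes (78.2%) and Go 1 the nearest inhibitor array in 244 (64.7%).

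**Figure D2:**
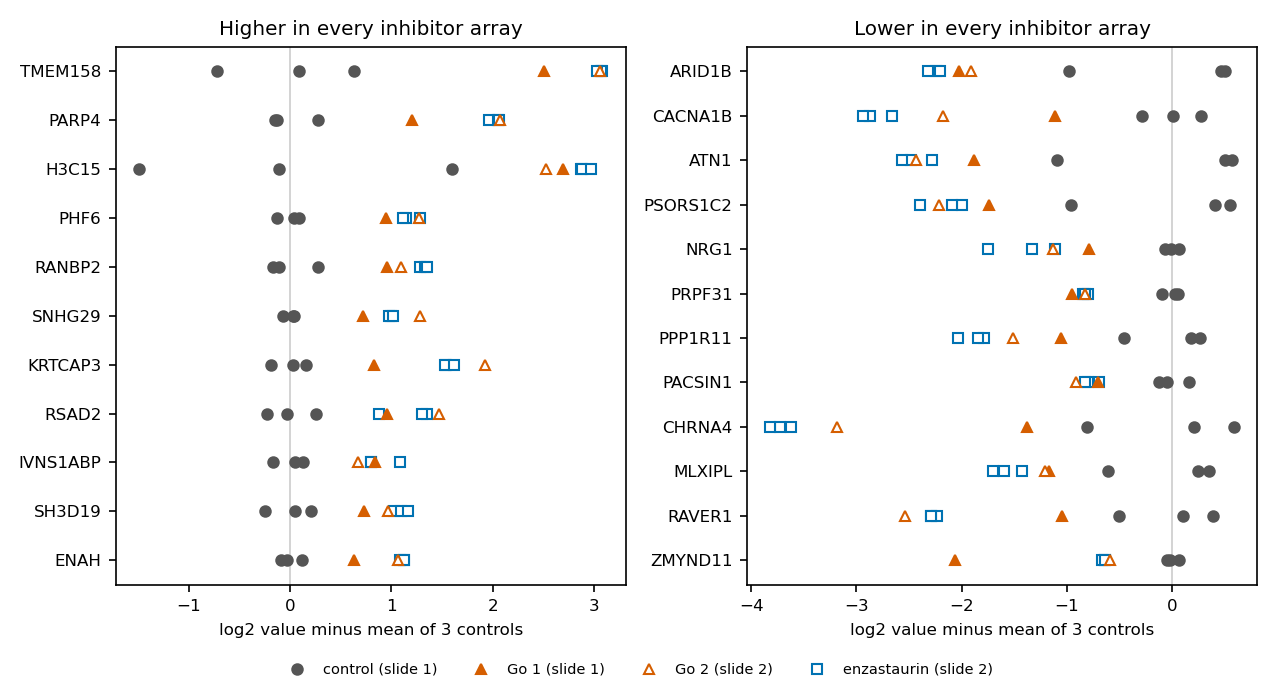
Levels on each of the 8 arrays, as log2 value minus the mean of the 3 controls, for the genes with the widest gaps, 11 that were higher and 12 that were lower. Filled symbols are arrays of the first slide and open symbols of the second; in TMEM158 every inhibitor array lies above every control by at least 1.87, and in most genes Go 1 is the inhibitor array nearest to the controls.

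The widest separation was a rise in TMEM158, a membrane protein first described as induced by oncogenic Ras. Its controls read 9.12, 9.93 and 10.48, enzastaurin 12.92, 12.91 and 12.87, and Go 12.35 and 12.90. The groups did not overlap, and the inhibitor arrays were close to each other while the controls spread over more than 1 log2 unit. The difference was 2.95 (SE 0.262, 95% interval 2.36 to 3.53, limma adjusted p = 0.000414), a 7.71-fold rise, and within the first slide it was 2.50 (SE 0.381, adjusted p = 0.0102). The second probe of TMEM158 was dimmer and separated by a gap of 0.06, with a difference of 0.41.

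PARP4, an ADP-ribosyltransferase of vault particles, read 7.96, 7.97 and 8.37 in controls, 10.07, 10.15 and 10.16 with enzastaurin, and 9.31 and 10.17 with Go. Go 1 lay between the controls and the other 4 inhibitor arrays. The difference was 1.87 (SE 0.202, adjusted p = 0.000665), the second probe gave 0.93, and the value within the first slide was 1.20 (SE 0.167, adjusted p = 0.00627). PHF6, a chromatin-binding protein with plant homeodomain fingers, read 8.89, 8.68 and 8.85 in controls, 9.95, 9.92 and 10.09 with enzastaurin, and 9.76 and 10.08 with Go. Its difference of 1.15 (SE 0.0997, adjusted p = 0.000383) was 0.95 within the first slide (adjusted p = 0.00665). All controls and all inhibitor arrays of PHF6 stayed within narrow ranges, and its second probe rose by 0.48.

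RANBP2, a nucleoporin of the cytoplasmic filaments, rose by 1.20 (SE 0.131) and its second probe by 0.46. ENAH, an actin regulator that sustains filament growth at the leading edge, rose by 1.01 (SE 0.124), with its 3 probes at 1.01, 0.54 and 0.19. SNHG29, a non-coding host of small nucleolar RNAs, rose by 0.99 (SE 0.117), and IVNS1ABP, a Kelch protein that binds actin, by 0.84 (SE 0.11). Limma adjusted p-values of these 4 genes were 0.000665 to 0.00111. Within the first slide they kept to 0.96 (RANBP2), 0.63 (ENAH), 0.72 (SNHG29) and 0.84 (IVNS1ABP), all with an adjusted p under the threshold. The same probe agreement was seen in KRTCAP3 (1.49), SH3D19 (0.99), an adaptor with SH3 domains, and LRP8 (2.14), a receptor for reelin and apolipoprotein E, which did not pass within the slide (adjusted p = 0.0526, 0.0603 and 0.188).

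A few rises rested on controls that differed widely among themselves. H3C15, a replication-dependent histone H3 gene with near-identical copies that make its name uncertain, read 8.98, 10.36 and 12.07 in controls against 13.00 to 13.44 in the inhibitor arrays. Its difference was 2.79 (SE 0.522, adjusted p = 0.00346), nearly equal at the second probe (2.69), and within the slide it missed the threshold (2.69, adjusted p = 0.121). RPL37, a ribosomal protein, read 11.98, 12.66 and 13.28 in controls and 13.80 to 14.59 in inhibitor arrays, and did not pass within the slide (1.15, adjusted p = 0.122). In both genes, and in LRP8 at 6.43, 7.40 and 8.77, control 1 was lowest and control 3 highest, in the order of the first principal component. The second probe of LRP8 rose by 0.62.

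PRPF31, a splicing factor of the U4/U6.U5 complex, was lower with little spread inside either group at its brighter probe. Its controls read 12.10, 12.07 and 11.95, enzastaurin 11.20, 11.25 and 11.22, and Go 11.09 and 11.22. The fall was by 0.85 on the log2 scale (SE 0.077, 95% interval -1.02 to -0.67, adjusted p = 0.000434) and did not shrink within the first slide (-0.95, SE 0.113, adjusted p = 0.0025). The second probe gave -0.81, and there Go 1 read 7.15 against 9.08 to 9.58 for the other inhibitor arrays.

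NRG1, the neuregulin ligand of the ErbB receptors, was lower at all 3 probes with log2 differences of -1.22, -0.85 and -0.83. At the brightest probe the controls read 12.26, 12.32 and 12.39, enzastaurin 11.00, 11.21 and 10.57, and Go 11.53 and 11.20. The groups did not overlap at any of the probes. The test gave SE 0.179 and adjusted p = 0.00159, and within the slide the difference was -0.79 (adjusted p = 0.0986). PACSIN1, an adaptor of endocytosis that is better known from neurons, fell by 0.79 (SE 0.092, adjusted p = 0.000817) at one probe and by 1.11 at the other, and passed within the slide (-0.70, adjusted p = 0.0352).

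In several of the largest falls control 3 stood well under the other controls. ARID1B, a subunit of the SWI/SNF chromatin remodelling complex, read 10.88, 10.85 and 9.40 in controls and 8.06 to 8.47 in inhibitor arrays. Its difference was -2.14 (SE 0.298, adjusted p = 0.00134), against -0.17 at the second probe. ATN1, a transcriptional corepressor, read 12.36, 12.43 and 10.76 against 9.29 to 9.97, and PSORS1C2 read 10.63 to 12.14 against 9.20 to 9.86. Their differences were -2.33 and -2.09, against -0.39 and -0.47 at the second probe. CHRNA4, a subunit of the nicotinic acetylcholine receptor, had the largest difference, -3.15 (SE 0.536, adjusted p = 0.00249), with Go 1 at 10.16 and the other inhibitor arrays at 7.72 to 8.35. Within the slide none of these 4 passed (adjusted p = 0.0615, 0.093, 0.0895 and 0.125).

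Other falls with a wide gap included the calcium channel subunit CACNA1B (-2.35), the orphan receptor GPR20 (-2.43), the splicing regulator RAVER1 (-2.08), the phosphatase inhibitor PPP1R11 (-1.64) and MLXIPL, the glucose-responsive transcription factor ChREBP (-1.42). The second probe of each fell by less, with differences of -0.79 (CACNA1B), -0.63 (GPR20), -0.17 (RAVER1), -0.60 (PPP1R11) and -0.61 (MLXIPL). At the brighter probe Go 1 was the inhibitor array nearest to the controls in all 5. None passed within the slide. There the values were -1.11 (CACNA1B, adjusted p = 0.0801), -1.01 (GPR20, 0.106), -1.05 (RAVER1, 0.085), -1.05 (PPP1R11, 0.0801) and -1.16 (MLXIPL, 0.102). A different pattern was seen in ZMYND11, a reader of methylated histone H3, which read 8.13, 8.02 and 8.05 in controls, 7.40, 7.43 and 7.43 with enzastaurin, and 6.0 and 7.47 with Go. Here Go 1 was far under all others, which gives a difference of -0.92 pooled (SE 0.307, adjusted p = 0.034) and -2.06 within the slide (adjusted p = 1.98e-05). The pooled call of ZMYND11 was lost without control 1, 2 or 3. At this brighter probe 4 of the 5 inhibitor arrays were above background. Its second probe differed by only -0.20, and there Go 1 read 6.92, among inhibitor arrays at 6.83 to 7.0.

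**Figure D3:**
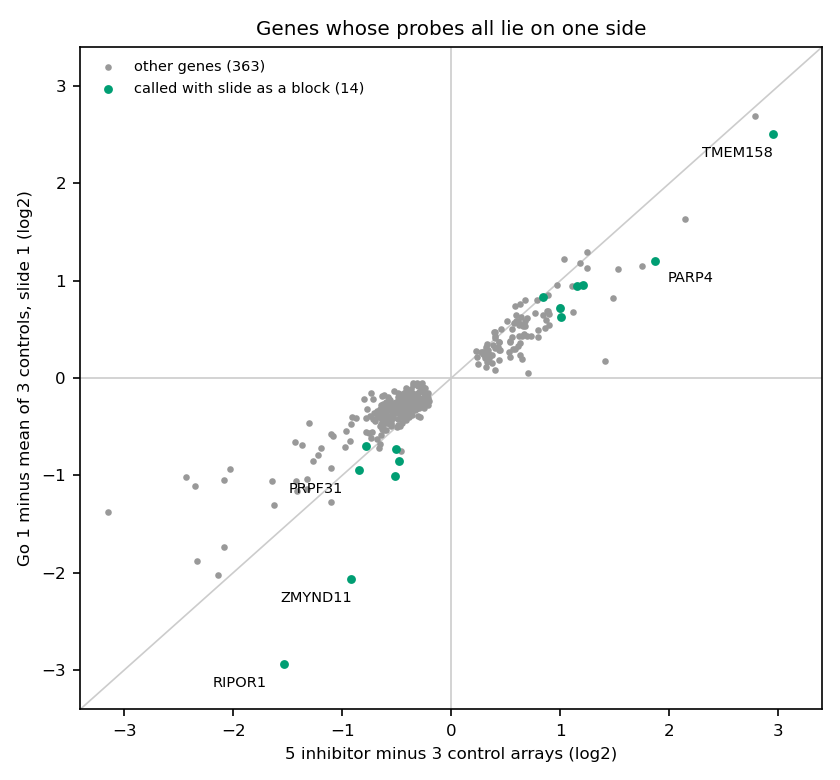
The 377 genes whose probes all lay on one side, with the pooled log2 difference (horizontal) against Go 1 minus the mean of the controls within the first slide (vertical); the diagonal marks equal values. Green points are the 14 genes that passed an adjusted p of 0.05 with the slide as a block, and most other points lie nearer to 0 on the vertical axis.

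With the slide as a block, 14 of the 377 genes passed, 7 higher and 7 lower. Their share was near that of all genes tested, and the rule that chose the 377 already put Go 1 beyond every control. These passes are thus no independent support for a shared response. The higher genes were TMEM158, PARP4, PHF6, RANBP2, SNHG29, IVNS1ABP and ENAH. The lower ones were PRPF31, PACSIN1, ZMYND11 and 4 that were named after their values were seen: KLHL21, a substrate adaptor of cullin ubiquitin ligases, CEACAM6, an epithelial adhesion molecule, SFXN3, a mitochondrial serine carrier, and RIPOR1. RIPOR1 read 10.79, 10.68 and 10.24 in controls, 9.35, 9.23 and 9.21 with enzastaurin, and 7.63 and 9.74 with Go, so that Go 1 sets its value of -2.94 within the slide against -1.53 pooled. KLHL21 read 11.65, 11.52 and 11.43 in controls and 10.80 to 11.11 in inhibitor arrays, with -0.50 pooled and -0.73 within the slide. CEACAM6 stood at -0.48 and -0.86, and SFXN3 at -0.52 and -1.01. At the second probe the pooled differences were -0.13 (RIPOR1), -0.17 (KLHL21), -0.58 (CEACAM6) and -0.23 (SFXN3). Go 1 did not stand apart at that probe of RIPOR1, where both Go arrays read 6.17. The pooled calls of CEACAM6 and SFXN3 were lost without control 1 or control 2, and that of RIPOR1 without control 1. Over all 377 genes the median within the slide was 0.46 for those that were higher and -0.31 for those that were lower.

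Only 6 genes changed by 2-fold or more at every probe, a set noted after their values were seen. They were CHRNA4, H3C15, KRTCAP3 and RPL37, described above, with IL18BP, a secreted protein that binds interleukin-18 (-1.42 and -1.27), and the zinc finger protein ZC3H7B (1.53 and 1.56). IL18BP read 8.26, 7.88 and 7.35 in controls at its brighter probe and 6.41 to 6.98 in inhibitor arrays. ZC3H7B read 5.89, 6.36 and 7.19 in controls and 7.60 to 8.46 in inhibitor arrays. Neither passed within the slide (adjusted p = 0.122 and 0.165).

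**Figure D4:**
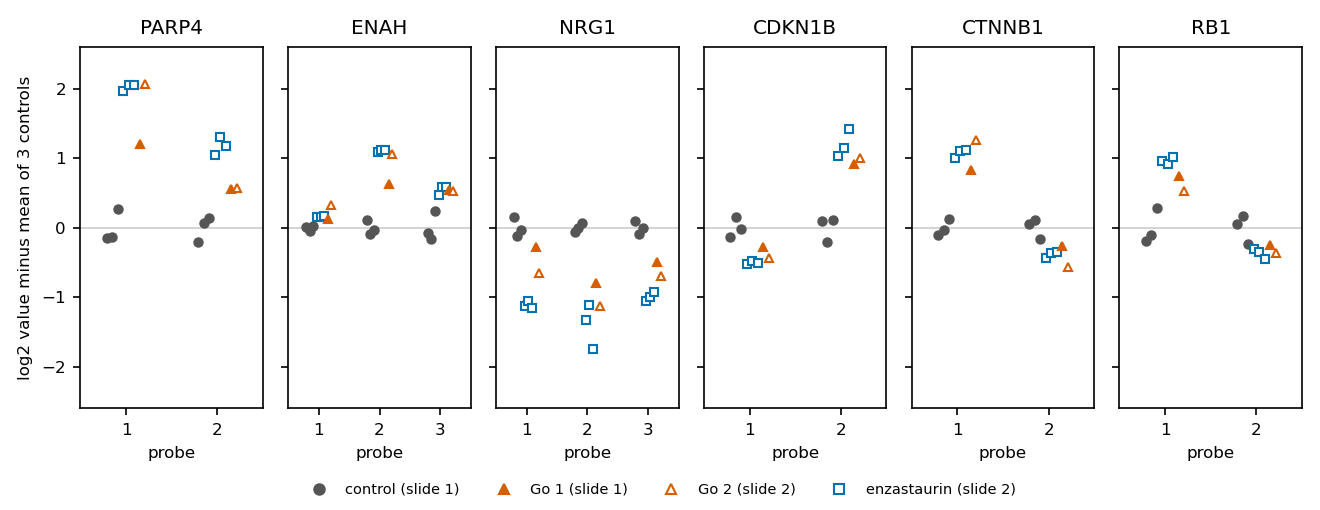
Levels at each probe, as log2 value minus the mean of the 3 controls, for 3 genes whose probes agree (PARP4, ENAH and NRG1) and 3 whose probes lie on opposite sides (CDKN1B, CTNNB1 and RB1), with 1 symbol per array. The 3 probes of NRG1 are all lower in every inhibitor array, while one probe of CDKN1B is 1.10 higher and the other 0.44 lower.

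Well-known genes were among those whose probes opposed each other. CDKN1B, the cyclin-dependent kinase inhibitor p27, rose by 1.10 (SE 0.126, adjusted p = 0.000745) at its brighter probe, where controls read 7.69, 7.39 and 7.71 and inhibitor arrays 8.52 to 9.01. At the other probe it was lower in every inhibitor array, with a difference of -0.44. CTNNB1, the beta-catenin of adherens junctions and Wnt signalling, was 1.07 higher at one probe and -0.40 at the other, and RB1, the retinoblastoma protein, 0.84 and -0.34. UHRF1, a factor of maintenance methylation, gave 1.05 and -0.60, the metallothionein MT1G 1.28 and -1.03, malic enzyme ME1 -0.50 and 1.12, and the protease CTSB -0.58, -0.78 and 2.78. NPM1, a nucleolar chaperone with many retrocopies, had 3 probes higher and 2 lower. For these genes the probes give no single direction. At the probe that stood for the gene, CDKN1B (0.92), CTNNB1 (0.83) and MT1G (1.40) passed within the slide and the others did not, and the call of CTSB was lost without control 1 or control 2.

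The gene lists below were read at the probe that stood for each gene. Those of their named genes that passed within the slide are given with that value, and the others named did not pass there. Shares are best set against all genes, of which 15.3% were higher and 31.1% lower.

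Among the kinase C isoforms themselves, 8 of 12 PKC and PKD genes could be tested, and 1 was higher and 2 lower (median 0.003 against -0.132 over all genes), or 2 higher and 1 lower with median centring. PRKCD, a diacylglycerol-responsive isoform linked to keratinocyte differentiation, read 8.61, 8.41 and 8.29 in controls and 7.98 to 8.23 in inhibitor arrays (-0.36, SE 0.097, adjusted p = 0.0145). PRKCH, an isoform of stratified epithelium, fell by 0.45 (SE 0.087) and the atypical isoform PRKCI rose by 0.28 (SE 0.1), both with groups that did not overlap at that probe. The second probe of PRKCI overlapped (0.09), and its call was lost without any 1 of the control or enzastaurin arrays. The call of PRKCD was lost without control 1. PRKCA, the conventional alpha isoform, differed by 0.20 (SE 0.111, adjusted p = 0.167), and PRKCB, the isoform enzastaurin was developed against, was not bright enough to test. None of the list passed within the slide.

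Of 20 AP-1 and immediate early genes, the transcription factors that respond first to kinase C and ERK, 4 were higher and 5 lower (median -0.216), or 4 and 2 with median centring. JUNB, an AP-1 subunit, read 10.87, 10.61 and 10.66 in controls, 12.06, 12.02 and 11.96 with enzastaurin, and 11.34 and 11.91 with Go (1.14, SE 0.16, adjusted p = 0.00136). It also passed within the slide (0.62, adjusted p = 0.045). KLF10, a zinc finger factor induced by TGF-beta, rose by 1.39 and the stress factor ATF3 by 0.66, while the small Maf protein MAFF fell by 1.11. JUNB and ATF3 had a second probe that overlapped between the groups. Of 19 genes of ERK output and feedback, 3 were higher and 1 lower (median -0.099), with PHLDA1 at 0.64 (overlapping at 2 of its 4 probes) and PHLDA2 at 0.59, and of 10 ErbB receptors and ligands, 2 were higher and 4 lower (median -0.362), or 2 and 2 with median centring. Beside NRG1, the ErbB inhibitors ERRFI1 (-0.68) and LRIG1 (-0.44) were lower, and the ligand EREG was higher (0.51, with its other probe overlapping at 0.05). The call of ERRFI1 was lost without control 1. EGFR differed by -0.38 (SE 0.165, adjusted p = 0.0809) and by 0.11 within the slide, so it has no settled direction.

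The phorbol ester response element bound by AP-1 is TGAGTCA or TGACTCA. A wider pattern, TGANTCA, with any base at the centre, was looked for in the 250 bases before each start site (RefSeq, GRCh38.p14). This pattern reads the same on both strands. Windows were found for 85 of the 104 higher genes, 211 of the 273 lower genes and 9942 of the 12313 tested. The pattern was present in 3 (3.53%), 6 (2.84%) and 446 (4.49%) of them. The cyclic AMP element TGACGTCA, also the same on both strands, was present in 2.35%, 4.74% and 2.82%, and an interferon-type element, TTTC repeated after any 2 bases on either strand, in 2.35%, 2.37% and 2.37%. Different motifs cannot share bases with each other. Matches of the interferon-type element can overlap, as 2 of them do in HERC5. Median G+C was 62.8%, 64.8% and 64.4%. A match is a description of the letters and not a site in use. The windows below show the pattern TGANTCA, in capitals, in CXCL8 and IVL, the classic targets discussed with their groups. It is also shown in SH3D19 and KLHL21, a higher and a lower gene with agreeing probes. The match in SH3D19 is TGATTCA, which lacks the centre base of the element.
CXCL8, chr4:73740319-73740568, plus strand: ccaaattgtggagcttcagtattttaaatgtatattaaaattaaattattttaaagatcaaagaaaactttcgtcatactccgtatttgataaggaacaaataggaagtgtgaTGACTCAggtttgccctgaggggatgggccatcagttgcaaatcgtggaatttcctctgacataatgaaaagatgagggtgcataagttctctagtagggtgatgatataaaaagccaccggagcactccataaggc
IVL, chr1:152908296-152908545, plus strand: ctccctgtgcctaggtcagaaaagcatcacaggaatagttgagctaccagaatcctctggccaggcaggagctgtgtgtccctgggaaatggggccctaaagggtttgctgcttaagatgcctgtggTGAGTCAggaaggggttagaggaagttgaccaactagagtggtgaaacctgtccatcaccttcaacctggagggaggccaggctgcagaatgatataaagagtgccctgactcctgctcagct
SH3D19, chr4:151226421-151226670, minus strand: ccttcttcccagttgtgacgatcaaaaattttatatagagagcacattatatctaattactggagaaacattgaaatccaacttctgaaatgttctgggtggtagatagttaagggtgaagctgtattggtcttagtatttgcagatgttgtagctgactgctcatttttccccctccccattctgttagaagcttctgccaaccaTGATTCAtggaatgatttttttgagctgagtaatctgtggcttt
KLHL21, chr1:6602870-6603119, minus strand: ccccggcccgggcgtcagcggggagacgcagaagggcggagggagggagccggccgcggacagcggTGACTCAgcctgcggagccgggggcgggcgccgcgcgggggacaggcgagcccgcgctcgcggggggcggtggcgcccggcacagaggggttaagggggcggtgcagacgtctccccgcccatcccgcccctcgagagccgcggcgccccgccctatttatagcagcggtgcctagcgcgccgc

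Of 39 DNA replication and S phase genes, 19 were lower, or 48.7% against 31.1% of all genes, and 3 were higher. ORC6, a subunit of the origin recognition complex, read 13.55, 13.30 and 13.07 in controls, 11.87, 11.90 and 11.88 with enzastaurin, and 12.75 and 12.04 with Go (-1.22, SE 0.204, adjusted p = 0.00233). Of its other probes one was lower (-0.60) and one overlapped (0.24), and within the slide ORC6 stood at -0.56 (adjusted p = 0.118). CDC45, part of the replicative helicase, was lower by a log2 difference of -0.77 and the polymerase subunit POLA1 of -0.73. RFC3, a clamp loader subunit, was the member whose probes agreed (-0.64 and -0.10; named after its values were seen). The list's median of -0.262 lay 0.13 under that of all genes, and 0.08 to 0.13 under it across the scalings, but centring on the median called 9 of its genes lower, and the slide block 1.

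Of 22 G1 cyclins and CDK inhibitors, 4 were higher and 6 lower (median 0.019), or 6 and 1 with median centring. CCND1, cyclin D1, read 10.46, 10.51 and 10.54 in controls, 9.93, 9.70 and 9.70 with enzastaurin, and 10.33 and 10.39 with Go. It was lower by a pooled difference of -0.49 (SE 0.17, adjusted p = 0.0376), made of -0.73 for enzastaurin and -0.14 for Go, and its other probes overlapped between groups. CCND2 had the same shape (-0.87, with -1.31 and -0.21), with its other probes overlapping too. Both calls were lost without any 1 of the control or enzastaurin arrays. CDK6, a partner of the D cyclins, rose by 1.25 (SE 0.166) and passed within the slide (1.34, adjusted p = 0.0308), while its other probe overlapped (0.13). Of 38 mitosis genes, 7 were higher and 6 lower (median 0.001), with the ubiquitin-conjugating enzyme UBE2C (1.71), the kinase CDK1 (1.04) and the scaffold ANLN (0.94) higher and cyclin A2, CCNA2, lower (-0.68). When arrays were centred on their medians, 17 mitosis genes were higher and 3 lower. MKI67, the proliferation antigen, differed by 0.18 (SE 0.084, adjusted p = 0.0982).

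Differentiation genes moved both ways. Of 31 genes of terminal differentiation and the cornified envelope, 5 were higher and 6 lower (median -0.256), or 7 and 4 with median centring. IVL, the envelope precursor involucrin, read 7.79, 7.49 and 7.35 in controls and 6.78 to 7.0 in inhibitor arrays (-0.70, SE 0.108, adjusted p = 0.00185), and -0.70 within the slide as well (adjusted p = 0.0682). CDSN, corneodesmosin, was lower by -0.67, while KRT1, a suprabasal keratin, was higher by 0.70 and the calmodulin-like protein CALML3 by 1.30. CALML3 also passed within the slide (0.99, adjusted p = 0.0257). Of 20 basal and hemidesmosome genes, 2 were higher and 4 lower (median -0.101), or 5 and 1 with median centring. TP63, the master regulator of stratified epithelium, was lower (-0.70, SE 0.124) and COL17A1, a hemidesmosome collagen, higher (1.21, SE 0.156), each at 1 of 2 probes, with the other probe overlapping.

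For genes of the mesenchyme and cadherins, 5 of 19 were higher and 3 lower (median 0.082), among them S100A4 (0.86) and the repressor SNAI2 (0.52) higher and the cadherin CDH11 (-0.83) and integrin ITGA5 (-0.58) lower. Matrix proteases and the plasminogen system had 0 of 22 higher and 5 lower (median -0.101). The lower members included the gelatinase MMP9 (-0.61), the plasminogen activator inhibitor SERPINB2 (-0.44), the inhibitor TIMP3 (-0.43) and the membrane protease MMP14 (-0.28), so proteases and their inhibitors were both among them. With median centring 2 were higher and 2 lower. The calls of SNAI2, ITGA5, SERPINB2, TIMP3 and MMP14 were lost without control 1 or control 2, and that of MMP14 also without enzastaurin 2 or 3.

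**Figure D5:**
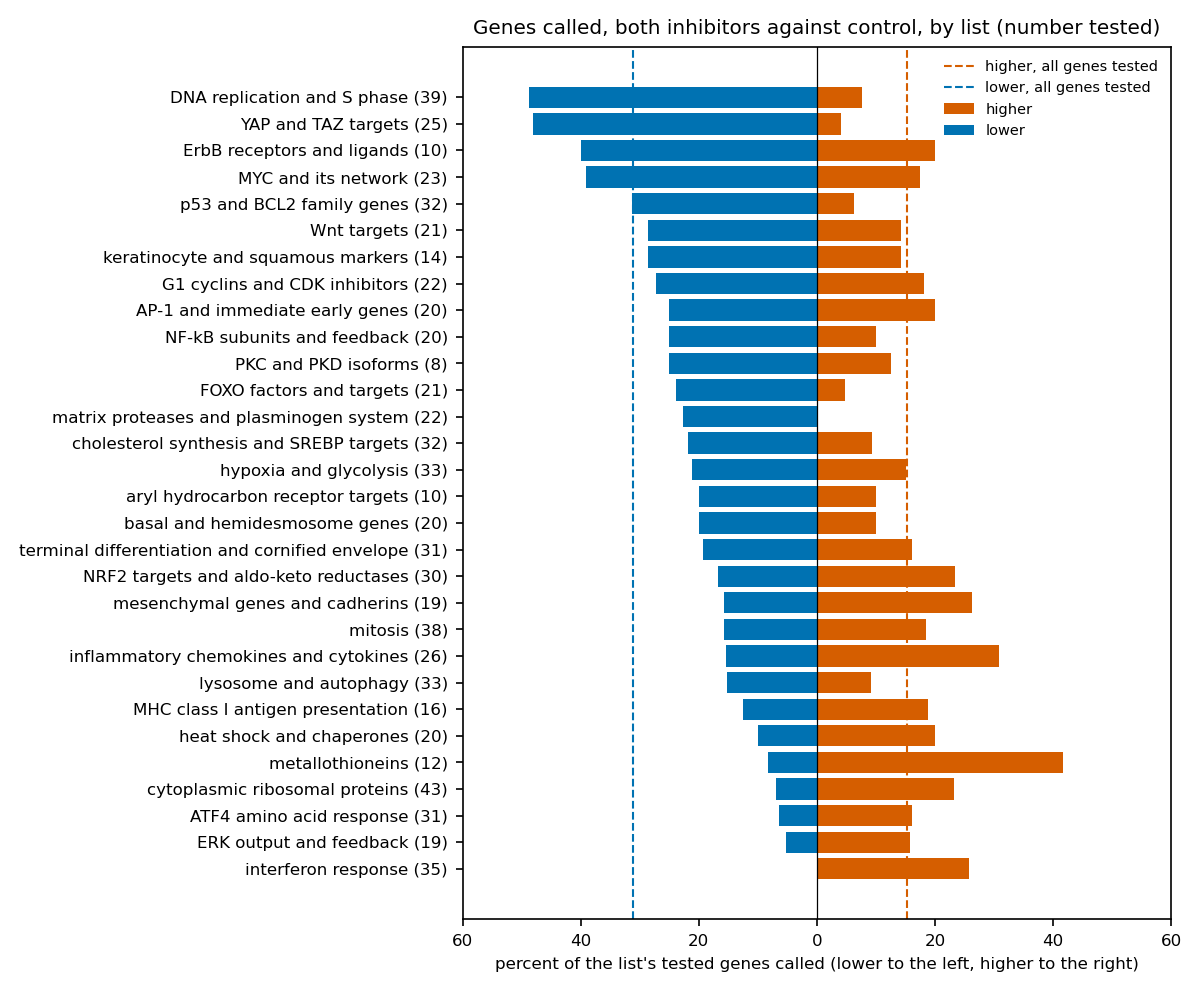
Percent of each list's tested genes that passed an adjusted p of 0.05 and were higher (right) or lower (left) in the inhibitor arrays, with the number tested in brackets and dashed lines for all genes tested (15.3% higher, 31.1% lower). DNA replication genes reach 48.7% lower and metallothioneins 41.7% higher.

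Among inflammatory and interferon genes, the share called higher stood above that of all genes (15.3%). Of 26 inflammatory chemokines and cytokines, 8 were higher (30.8%) and 4 lower (median 0.105, or 0.24 above all genes). CXCL8, the neutrophil chemokine interleukin-8, had the second largest rise of the named list members. Its controls read 5.77, 6.83 and 9.10, enzastaurin 10.65, 10.61 and 10.94, and Go 10.90 and 10.56. The groups did not overlap, but 1 control array was not above background and the controls spread over 3 log2 units. The difference was 3.5 (SE 0.572, adjusted p = 0.00218), and within the slide 3.67 (adjusted p = 0.0743). CCL20 (0.90; 1.5 within the slide, adjusted p = 0.0488) and CXCL5 (0.75) were higher too, with the call of CCL20 lost without control 1, and the cytokine IL36G, released by stressed keratinocytes, was lower (-0.92). PTGS2, the inducible cyclooxygenase COX-2, was the member whose probes agreed (0.69 and 0.42; named after its values were seen), with controls at 6.98, 6.88 and 6.96 and inhibitor arrays at 7.37 to 7.81.

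Of 35 interferon response genes, 9 were higher (25.7%) and 0 lower, with a median of 0.109 that lay 0.24 above all genes. With median centring 17 were higher and 0 lower. Within the slide the calls in this list went both ways. By groups that did not overlap, 5 of the 35 were higher and 0 lower, a share near the 14% of all genes. MX1, an antiviral GTPase, read 12.76, 12.70 and 12.86 in controls, 14.63, 14.11 and 14.49 with enzastaurin, and 14.16 and 14.63 with Go. Every inhibitor array was well above every control, and both compounds gave nearly the same value, 1.64 and 1.62. The pooled difference was 1.63 (SE 0.138, adjusted p = 0.000383), and 1.39 within the slide (adjusted p = 0.00693). RSAD2, the antiviral protein viperin, was higher at both probes (1.19 and 0.55), reading 8.16, 8.36 and 8.65 in controls and 9.27 to 9.86 in inhibitor arrays, and within the slide it missed the threshold (0.95, adjusted p = 0.0708). The ubiquitin-like ligase HERC5 (1.13) passed within the slide as well (adjusted p = 0.0364), and SAMD9L was higher by 0.62. The list medians were 0.008 for enzastaurin and 0.353 for Go, which are set side by side and not compared.

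Of 16 genes of MHC class I antigen presentation, 3 were higher and 2 lower (median 0.015). HLA-F, a class I heavy chain, rose at both probes (0.40 and 1.01) and HLA-E by 0.88 at 1 of 3 probes, with the others overlapping (0.27 and 0.08), while the immunoproteasome subunit PSMB8 was lower (-0.37). The calls of HLA-F and PSMB8 were lost without control 1 or control 2. Class I genes are alike in sequence, so their probes may share signal. The windows of HERC5 and HLA-F are shown because they hold the interferon-type element on either strand, in capitals. It was also present in COL17A1, which was higher, and in PPP1R11 and WARS1, which were lower. With shares of 2.35%, 2.37% and 2.37% in higher, lower and all genes, it was no more common among the higher genes.
HERC5, chr4:88456869-88457118, plus strand: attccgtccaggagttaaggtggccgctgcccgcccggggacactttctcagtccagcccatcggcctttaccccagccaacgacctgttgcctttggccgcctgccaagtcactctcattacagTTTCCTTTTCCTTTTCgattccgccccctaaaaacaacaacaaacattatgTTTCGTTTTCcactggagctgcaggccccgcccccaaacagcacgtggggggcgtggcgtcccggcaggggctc
HLA-F, chr6:29723184-29723433, plus strand: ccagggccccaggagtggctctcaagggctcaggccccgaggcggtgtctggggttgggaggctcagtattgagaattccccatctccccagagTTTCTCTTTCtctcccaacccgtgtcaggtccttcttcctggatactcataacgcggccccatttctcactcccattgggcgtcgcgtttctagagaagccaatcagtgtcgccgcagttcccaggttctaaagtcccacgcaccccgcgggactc

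Of 20 NF-kB subunits and feedback genes, 2 were higher and 5 lower (median -0.096), or 4 and 2 with median centring. BIRC2, an inhibitor of apoptosis and ubiquitin ligase of the pathway, was higher by 1.93 (SE 0.234, adjusted p = 0.00095; 1.41 within the slide, adjusted p = 0.0466), and its relative BIRC3 by 0.39 (0.65 within the slide, adjusted p = 0.0413). The subunits NFKB1 (-0.67) and RELA (-0.38) were lower. The call of BIRC3 was lost without control 1 or control 2, and that of RELA without control 2.

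Metallothioneins, small proteins that bind zinc and copper, had 5 of 12 genes higher (41.7%) and 1 lower (median 0.141, or 0.27 above all genes). MT1M had the largest rise of the named genes. It read 7.02, 7.66 and 8.5 in controls, 12.56, 12.63 and 12.54 with enzastaurin, and 11.24 and 13.47 with Go. The difference was 4.76 (SE 0.451, adjusted p = 0.000475), a 27.1-fold rise, and 3.51 within the slide (adjusted p = 0.00765), with 1 control array not above background. MT1L (0.78) and MT1A (0.65) were higher by less. Of the 5 metallothionein genes with 2 or more tested probes, 0 had probes that agreed and 2 had probes on opposite sides. Metallothionein genes are near-identical and MT1M has 1 tested probe, so the name of the transcript is uncertain.

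Targets of the aryl hydrocarbon receptor, a sensor of xenobiotics, had 1 of 10 genes higher and 2 lower (median 0.013). CYP1B1 read 9.61, 9.85 and 10.11 in controls, 11.00, 10.88 and 11.20 with enzastaurin, and 11.40 and 11.66 with Go (1.37, SE 0.181, adjusted p = 0.00112), and passed within the slide (1.55, adjusted p = 0.0227). CYP1A2 was lower (-1.44, SE 0.206). CYP1A1 was no shared response: controls read 7.86, 7.86 and 7.81, enzastaurin 7.99, 7.60 and 7.82, and Go 9.79 and 9.48, with a pooled difference of 0.69 (adjusted p = 0.255). Of 30 NRF2 targets and aldo-keto reductases, 7 were higher and 5 lower (median 0.05), or 6 and 7 with arrays scaled to the 75th percentile, with thioredoxin, TXN, at 1.13 (its other probe overlapping at 0.29), and ferritin light chain, FTL, at 0.55 at one probe and -0.40 at another. TKT, transketolase, was lower by -0.39.

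Of 32 genes of cholesterol synthesis and SREBP targets, 3 were higher and 7 lower (median -0.085), or 6 and 1 with median centring. The list medians were 0.106 for enzastaurin and -0.276 for Go. FADS2, a fatty acid desaturase, was higher by 0.64 (SE 0.111) at 1 of 2 probes. The desaturase SCD was higher by 2.42 (SE 0.338) at the probe that stood for it, at which 1 of 3 control arrays was above background, and its other probes gave -0.28 and -0.01 with overlapping groups.

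Of 33 hypoxia and glycolysis genes, 5 were higher and 7 lower (median -0.107), or 8 and 2 with median centring. P4HA2, a collagen prolyl hydroxylase, read 10.03, 10.06 and 10.11 in controls, 12.06, 11.78 and 11.97 with enzastaurin, and 10.24 and 11.31 with Go, and was higher at both probes (1.41 and 0.92). Go 1 lay 0.13 above the highest control, and the value within the slide was 0.17 (adjusted p = 0.687). PFKFB3, the regulator that makes fructose 2,6-bisphosphate, was higher at both probes (0.37 and 1.30; named after its values were seen), with its call lost without control 1. LDHA (0.63, with 1 of its other probes overlapping) and P4HA1 (0.64, 1 probe) were higher as well, and the phosphofructokinase PFKL was lower (-1.02, with its other probe overlapping at -0.20). VEGFA, the angiogenic growth factor, had 1 brighter probe that overlapped between the groups (-0.13, SE 0.174, adjusted p = 0.559) and a pair that were higher, by 3.33 and 0.67. At the probe with the rise of 3.33 the controls read 5.72, 5.66 and 6.58 and the inhibitor arrays 9.0 to 9.57, so the choice of probe decides its direction.

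Stress and lysosome genes were mixed. Of 20 heat shock genes and chaperones, 4 were higher and 2 lower (median -0.051). BAG3, a co-chaperone, read 9.64, 9.55 and 9.76 in controls and 10.48 to 10.81 in inhibitor arrays (1.05, SE 0.098, adjusted p = 0.000452; 0.83 within the slide, adjusted p = 0.00964), and DNAJA1 rose by 0.74 (0.65 within the slide, adjusted p = 0.045), each with its other probe overlapping (0.20 and 0.34). HSPA1A, the inducible HSP70, which has a near-identical copy, was lower at all 3 probes (-0.53, -0.68 and -0.66), with -0.26 within the slide (adjusted p = 0.262). Of 31 genes of the ATF4 amino acid response, 5 were higher and 2 lower (median -0.008), with the asparaginyl-tRNA synthetase NARS1 (1.43, SE 0.148; 0.94 within the slide, adjusted p = 0.00288), GARS1 (0.40) and PSAT1 (0.45) higher and WARS1 (-0.52) lower. The call of GARS1 was lost without control 1, control 2, Go 2 or any 1 of the enzastaurin arrays, and that of WARS1 without control 1 or control 2. Of 33 lysosome and autophagy genes, 3 were higher and 5 lower (median -0.028), or 4 and 0 with median centring, with the glucosidase GAA (1.83; 1.34 within the slide, adjusted p = 0.0117) and the receptor SQSTM1 (0.50) higher and PSAP (-0.48, with its other probe overlapping at 0.05) lower.

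Targets of YAP and TAZ, the coactivators that respond to cell shape and tension, had 12 of 25 genes lower (48% against 31.1% of all genes) and 1 higher (median -0.334, or 0.20 under all genes). The kinase receptor AXL (-0.65), FOXF2 (-0.67) and GADD45A (-0.50) were lower and tissue factor, F3, was higher (0.69). With median centring 2 were lower, and within the slide 0 were called. The call of FOXF2 was lost without control 1 and that of GADD45A without any 1 of the controls, enzastaurin 2 or enzastaurin 3. Of 32 p53 and BCL2 family genes, 2 were higher and 10 lower (median -0.16). That is 31.2% lower, near the 31.1% of all genes, and median centring gave 5 higher and 4 lower. They held the BH3-only genes HRK (-2.26) and BBC3 (-0.56), the kinase PLK3 (-0.81) and BTG2 (-0.79) as lower members. HRK read 12.62, 12.38 and 11.36 in controls and 9.54 to 10.74 in inhibitor arrays, at 1 of 2 probes, and BBC3 was lower at 1 of 3, with the others overlapping. Of 21 Wnt targets, 3 were higher and 6 lower (median -0.137). WNT10A, a ligand of the ectoderm, was higher at both probes (0.90 and 0.31), and LGR6 was lower (-1.40). NKD2 was lower by a difference of -2.44 (-1.22 within the slide, adjusted p = 0.0257), while its other probe overlapped at -0.16.

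Of 23 genes of MYC and its network, 4 were higher and 9 lower (median -0.073), or 4 and 4 with median centring. MYCN read 12.52, 12.13 and 10.73 in controls, 8.62, 8.54 and 8.35 with enzastaurin, and 9.86 and 8.82 with Go (-2.95, SE 0.421, adjusted p = 0.00145), and within the slide it did not pass (-1.94, adjusted p = 0.0907). MXD1, an antagonist of MYC, was higher (1.25; 1.07 within the slide, adjusted p = 0.044; other probe overlapping at 0.17) and MXD3 lower (-0.78). MYC itself was no shared response, with controls at 12.04, 11.98 and 12.23, enzastaurin at 11.51, 11.42 and 11.44, and Go at 12.32 and 12.33 (pooled -0.28, adjusted p = 0.347). At its second, dimmer probe MYC read 7.56, 7.94 and 8.19 in controls, 6.92 to 7.16 with enzastaurin, and 7.99 and 7.10 with Go, so there Go was not above the controls. Of 21 FOXO factors and targets, 1 was higher and 5 lower (median -0.065), or 4 and 2 with median centring. The lower ones included PDK4 (-0.51; -0.62 within the slide, adjusted p = 0.0241), IRS2 (-0.58) and TRIB1 (-0.59), and IRS2 and TRIB1 overlapped at their other probes.

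Cytoplasmic ribosomal proteins had 10 of 43 genes higher and 3 lower (median -0.012), but arrays scaled to the 75th percentile gave 6 higher and 12 lower, so the list has no settled direction. Of the 29 with 2 or more tested probes, 2 were higher at every probe, 0 were lower at every probe, and 6 had probes on opposite sides. RPL37 was higher at both probes (1.75 and 1.29). RPS23 (1.75; 0.69 within the slide, adjusted p = 0.0483), RPLP2 (0.94) and RPS24 (0.80) were higher at their 1 tested probe. These genes have many processed copies in the genome, and probes may read several of them.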

How the data were processed

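Gene expression was measured on 1-colour arrays of 3 control, 3 enzastaurin and 2 Go samples. Per the file headers, the deposited scanner tables hold GenePix spot intensity with 2 quality columns, a score of signal over noise and the percent of pixels at saturation. The columns bear the red channel's name although the labels give Cy3. The deposited value table holds background-subtracted intensity in which 5.65% to 10.2% of values stood at its floor; the software and scaling behind it are not given in the sources used here. The names in the scanner tables ran in the opposite order to the spots, with rank correlations between scanner intensity and value table of 0.0039 to 0.0096 as deposited and 0.989 to 0.993 when turned, so the turned order was used. Of 41000 probes, 26830 were named through RefSeq (GRCh38.p14) accessions or symbols, giving 17529 symbols.

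Values were taken as log2(value + 50) and quantile normalised. A probe was tested where its signal-to-noise score exceeded 3 on at least 3 arrays, and the brightest probe stood for a gene. The pooled difference was fitted with limma 3.58.1 (R 4.3.3) and adjusted by Benjamini-Hochberg at 0.05 over all 12313 genes. In simulated data of the same size, 99.1%, 93.6% and 62.6% of genes changed by 2, 1 and 0.5 log2 units were recovered, with 5.33% false calls. The simulation changed 200 genes per run and drew the noise of each gene on its own. It held no slide effect, no difference between the compounds and no drift shared by the controls. The 5.33% is therefore not the false-call rate of the 5705 genes called. Figures were drawn with matplotlib 3.10.9.

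The members, gene lists and tests were chosen with earlier results of these data known. Genes were named where all of 2 or more probes agreed and the gene was called: the 12 widest gaps and the 5 largest differences each way. Added to these were up to 4 called members per list with groups that did not overlap, and PRKCA, PRKCB, PRKCD, CCND1, MYC, EGFR, CYP1A1, CYP1B1, IVL, MKI67 and VEGFA. Some genes that these rules name are not reported here. Alternatives changed the scaling, pseudocount, filter, probe rule, weighting of the compounds, blocks and arrays included. The slide was inferred from spot positions.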

Additional observations from a re-analysis of the deposited data

Results flagged for a closer look

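At the brighter of its 2 probes, MYC stood on opposite sides of the controls with the 2 compounds, with every enzastaurin array under every control (log2 difference -0.63) and every Go array above every control (0.24). At the other probe the controls read 7.56, 7.94 and 8.19 and Go 7.99 and 7.10, so Go was not above them. The difference between the compounds was not tested, because the dose of Go is not known. No group held enough arrays for a check on single arrays far from the rest.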

How the results depend on the processing

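The slide block had the strongest effect. It left 363 genes called of 5705, and 16 genes with all probes on one side (14 of them among the 377). Leaving out 1 array at a time gave 3187 to 6442 genes called, 5614 to 7298 genes with groups that did not overlap, and 272 to 572 genes with all probes on one side, the last without control 3 (345 shared with the 377). With control 3 and Go 1 left out together, an alternative chosen after seeing the data, that count was 724 (349 shared). Directions turned for CTSB (0.48), FTL (-0.029), ME1 (0.31) and NPM1 (-0.11) when all probes of a gene were averaged, for EGFR (0.11) and MYC (0.24) with the slide block, and for SCD (-0.28) when only probes above background on all 8 arrays were kept. VEGFA turned to 0.035 with median centring, 1.87 with a pseudocount of 200 and 1.29 with averaged probes, and ranged from -0.21 to 0.0092 over the sets that left out 1 array, the highest without Go 2. The cause was not tested. Of 150 named genes, 144 were called, 103 of them in every alternative other than the slide block, and far fewer in that block. Most of these genes were named because they were called, so the counts were largely set by that choice. They have no share over all genes beside them and do not measure how robust the results are.

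Values centred within each group correlated at 0.0879, 0.0226 and 0.177 between same-numbered control and enzastaurin arrays. Between control and Go the correlations were 0.118 and -0.147. With so few arrays in a group the centring ties these values to each other, so pairing by replicate number is not excluded. The replicate block gave 5478 genes called and 360 with all probes on one side.

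Precision is limited by 8 arrays, 2 of them for Go, and by dim probes near background.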
